A study of Mus musculus with 12 samples.

Results

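The translation initiation and elongation factors of the mouse are the genes whose products place the ribosome at a start codon and then carry it along the messenger RNA. Members were chosen by symbol: those beginning with Eif1 to Eif6 or with Eef1 or Eef2, leaving out the eIF2 kinases and the X- and Y-linked genes of the gamma subunit of eIF2. The rule matched 80 RefSeq symbols, of which 62 had a named probe on the array. Detection was required on each of the 4 arrays in 1 or more groups, a probe counting as detected when the scanner software marked it well above background. This left 61 members among 13169 genes tested, of which 58 were well above background on all 12 arrays. Eef2k and Eif5b passed through the control arrays alone, so they had to be lower elsewhere. Their falls against control are described without a test, although the counts of calls and of calls that held include them. The member with a probe that did not pass was Eif4e1b. Of the 18 symbols with no named probe, 14 are annotated as pseudogenes, 1 as a long noncoding RNA and 3 as protein coding. The rule used gene names and detection, not the differences between groups.

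Initiation starts when eIF2 brings the initiator tRNA to the small ribosomal subunit, which also carries eIF1, eIF1A, eIF5 and the large complex eIF3. The cap-binding complex eIF4F, made of the cap-binding protein eIF4E, the scaffold eIF4G and the helicase eIF4A, recruits this assembly to the messenger RNA. Binding proteins (4E-BPs) hold eIF4E back until the kinase complex mTORC1 phosphorylates them, and phosphorylation of eIF2 blocks its exchange factor eIF2B. Elongation needs eEF1A, which delivers aminoacyl-tRNA, its exchange factor eEF1B, and eEF2, which moves the ribosome on and is inhibited by the kinase eEF2K. In macrophages, control of these steps is known to help set how much cytokine protein is made after a bacterial stimulus.

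RNA came from cultured peritoneal macrophages of wild-type C57BL/6 mice and was hybridised to 12 Agilent single-colour arrays, 4 in each of 3 groups, which the submitters call biological replicates. The LPS_IFNg_emodin group received bacterial lipopolysaccharide (LPS, 100 ng/ml), interferon gamma (20 ng/ml) and the plant anthraquinone emodin (50 uM). The LPS_IFNg group received LPS and interferon gamma at the same doses, and the control group received neither these nor emodin; samples are described as taken at 20 h. All cells had been kept overnight in serum-free medium beforehand, so serum starvation was common to the 3 groups. The labels give the treated mice as 9-week-old females, and the control mice as 8 weeks old with 2 females and 2 males. The series' design text speaks of peripheral white blood cells, whereas the sample labels give peritoneal macrophages.

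Several features of the arrays touch every comparison. The control arrays were all on one slide and the arrays of both treated groups on another, so slide, mouse age and treatment cannot be told apart in any comparison with control; the comparison of the treated groups lies within 1 slide. On 4 arrays the sex-linked genes went against the sex label: LPS_IFNg_emodin replicate 3 and LPS_IFNg replicate 3, labelled female, had Xist not well above background and Ddx3y present, and control replicates 3 and 4, labelled male, had Xist present. The 7 macrophage markers with a named probe, of 8 listed, were well above background on every array. The summed level of 10 mesothelial and fibroblast markers was 3.43 to 5.14 on LPS_IFNg_emodin arrays, 6.13 to 7.07 on LPS_IFNg arrays and 4.08 to 6.21 on control arrays. For 9 neutrophil markers with a probe, of 10 listed, it was 4.75 to 5.05 on LPS_IFNg_emodin arrays, 4.45 to 4.72 on LPS_IFNg arrays and 4.61 to 5.14 on control arrays. For 7 B and T lymphocyte markers it was 1.04 to 1.28 on LPS_IFNg_emodin arrays, 0.83 to 1.67 on LPS_IFNg arrays and 1.86 to 2.32 on control arrays. Markers well above background on no array numbered 3 of 10 mesothelial and fibroblast, 2 of 9 neutrophil and 5 of 7 lymphocyte genes in LPS_IFNg_emodin, 2, 5 and 2 in LPS_IFNg, and 0, 0 and 3 in control. Pdgfra and Ms4a1 were at this level on all LPS_IFNg_emodin arrays and well above background on all others. The part of these other cells in the results was not tested. In bulk RNA, fewer cells of a type and less RNA per cell cannot be told apart.

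Levels are log2 processed signals relative to the 75th percentile of the same array, so 0 is the 75th percentile and 1 unit is a doubling of signal. Levels are compared between groups for 1 probe. Where the difference between the probes of a pair of genes is given, only its shift between groups is read, not relative abundance. A gene was called where limma's adjusted p (Benjamini-Hochberg over all 13169 genes, two-sided) was under 0.05. The arrays differed in brightness: the 75th percentile lay at 435 to 548 signal units on LPS_IFNg_emodin arrays, 763 to 942 on LPS_IFNg arrays and 747 to 971 on control arrays. The 7 spike-in probes, which read RNA added in known amounts, averaged 13.18 to 13.40 in log2 signal on LPS_IFNg_emodin arrays and 13.27 to 13.44 on LPS_IFNg arrays. The dimmer arrays had spike-in signals close to those of the brighter ones, and emodin changes are on the 75th percentile scale unless the spike-in scale is named. Scaling to the spike-ins lowers every emodin change by the same amount, a log2 shift of -0.68. Control arrays had spike-in signals of 10.53 to 10.99, on their own slide, so no spike-in scaling was made against control.

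Under LPS and interferon gamma alone, 21 members rose, 14 fell and 26 were not called against control. These falls include Eef2k and Eif5b, which had to be lower than control. The share called was 57.4% of members, against a background of 69.0% of all genes (34.1% rose and 34.9% fell), and the median member change of 0.05 lay beside -0.03 over all genes. For 35 members (background 64.4% of all genes) no array of one group lay within the range of the other. Risers were found among start-codon factors (Eif1, Eif5), the cap-binding group (Eif4e, Eif4e2, Eif4g2, Eif4g3), eIF2B (Eif2b2, Eif2b5) and the ribosome-joining control factor Eif6. Fallers included the binding-protein gene Eif4ebp2, the eEF1A genes Eef1a1 and Eef1a2. Without the 4 arrays that went against their sex label, 19 members rose and 15 fell. Of the calls over all arrays, 17 of the 21 rises and 13 of the 14 falls held under each of the other scalings. Quantile scaling gave 17 rises and 26 falls, the deposited values 17 rises and 25 falls, and the percentile over detected probes 18 and 19; these scalings put the median of all genes between -0.16 and -0.13 and the median of members between -0.078 and -0.073. Probes detected on every array gave 21 rises and 12 falls. Of 22 members with further probes, 8 had another call from one of them.

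**Figure D1:**
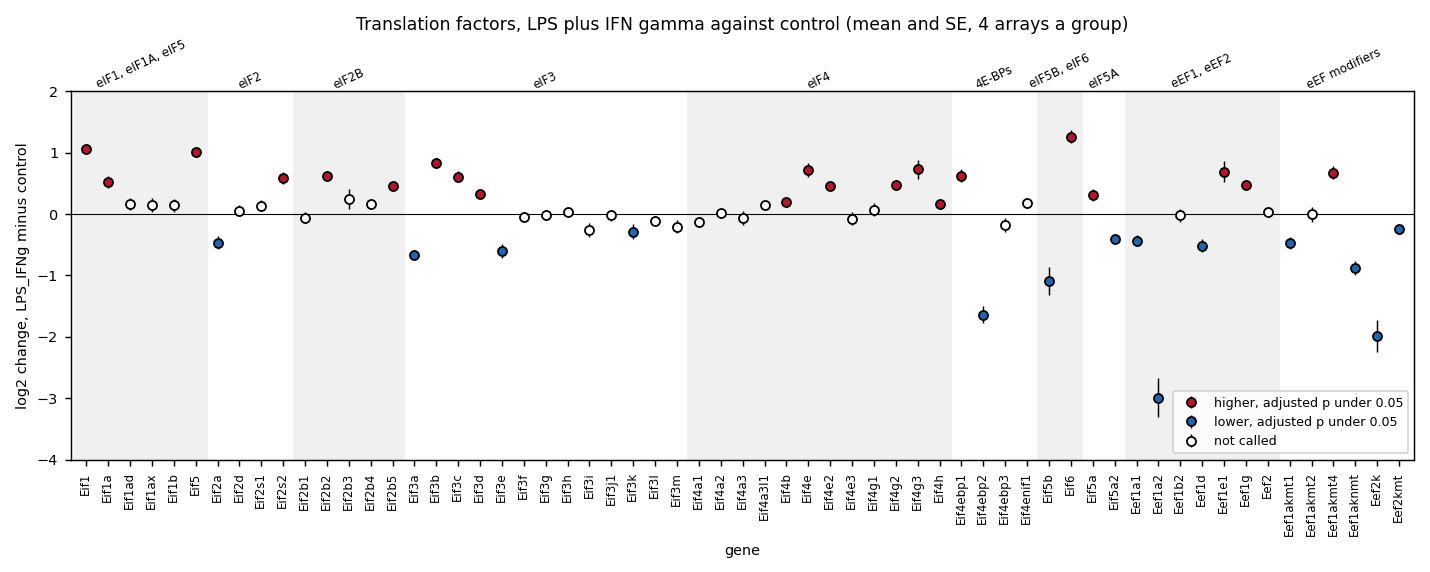
Log2 change of each of the 61 members, LPS_IFNg minus control, ordered along the x axis by role, with the standard error as a bar and 4 arrays in each group. Filled points had an adjusted p under 0.05: 21 lie above 0 and 14 below, with Eif6 at 1.26 the highest and Eef1a2 at -2.996 the lowest. The points below 0 include Eef2k and Eif5b, which had to be lower than control.

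The direction of member changes with emodin added to LPS and interferon gamma depended on the scaling. On the 75th percentile scale 32 of 61 members rose, and on the spike-in scale 31 of 61 fell. Against LPS_IFNg, 32 members rose, 18 fell and 11 were not called, a share of 82.0% against 72.0% of all genes (36.1% rose and 36.0% fell), and the median member change was 0.36 beside 0.01 over all genes. Without those 4 arrays, 31 rose and 17 fell. Eif5b, below background in both groups, is among the falls, and probes detected on every array gave 31 rises and 16 falls. Of 22 members with further probes, 6 had another call from one of them. Arrays did not overlap for 48 members, with a background of 67.5%. All 4 genes of the eIF2 group, 11 of 13 eIF3 subunits and 6 of 7 elongation factors rose on this scale. On the spike-in scale 5 members rose and 31 fell, with a median of -0.32 among members and -0.67 over all genes. Of the 13169 genes tested, 1202 rose and 8525 fell there, so a smaller share of members than of all genes fell. The 5 that rose on both scalings were Eif4b, Eif4a2, Eif3a, Eif3f and Eef2. The 18 that fell on the 75th percentile scale also fell on the spike-in scale, whereas 25 risers were not called there and 2 turned to falls (Eif4e and Eif4enif1). Which scaling lies closer to RNA per cell was not tested.

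**Figure D2:**
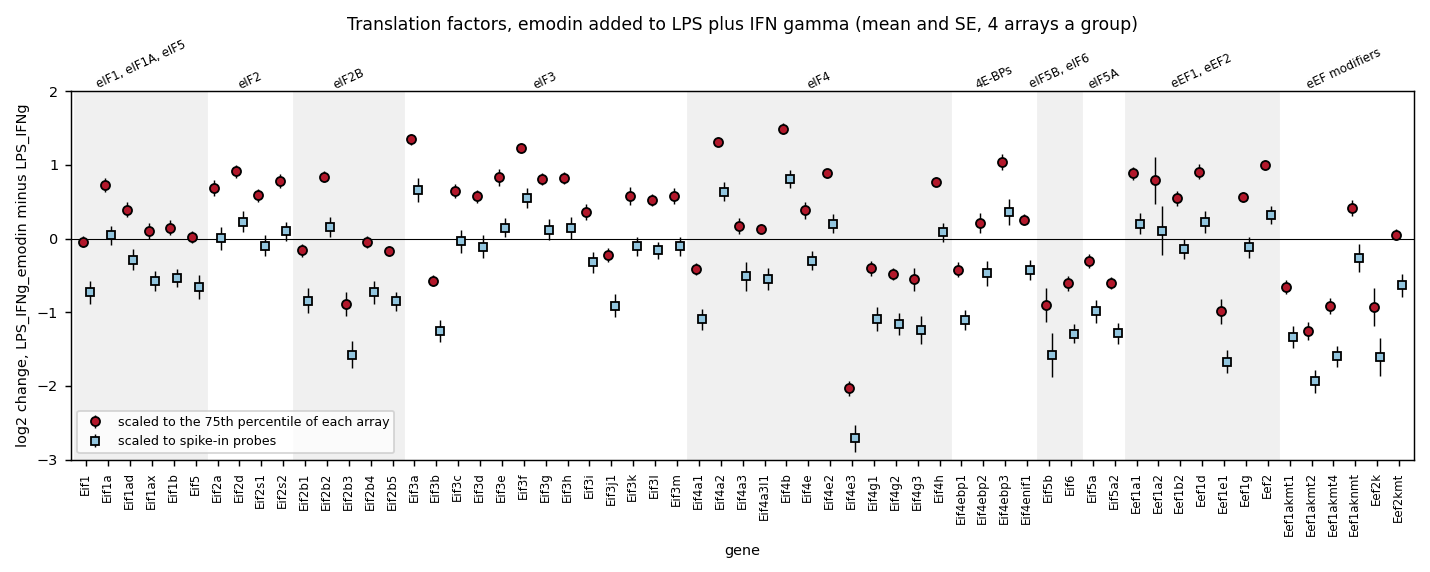
Log2 change of each of the 61 members, LPS_IFNg_emodin minus LPS_IFNg, by role along the x axis, with circles for 75th percentile scaling, squares for spike-in scaling and bars for the standard error. The squares lie a constant 0.68 below the circles; Eif4b is highest at 1.49 and 0.81, and Eif4e3 lowest at -2.03.

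With emodin, LPS and interferon gamma together, set against control, 34 members rose, 15 fell and 12 were not called. Eef2k and Eif5b, which had to be lower than control, are among these falls. The 80.3% called compares with 78.0% of all genes (39.8% rose and 38.2% fell). The median member change was 0.29, beside 0.02 over all genes. It was -0.0029 under quantile scaling and -0.0082 in the deposited values, beside -0.14 over all genes in each. No overlap between groups was seen for 43 members (background 72.5%). Quantile scaling gave 25 rises and 21 falls, and the deposited values 24 rises and 21 falls. Without the 4 arrays against their sex label, 32 rose and 14 fell. Under each of the other scalings 23 of the 34 rises and 11 of the 15 falls held. Of 22 members with further probes, 3 had another call from one of them (Eif2s1, Eif3c and Eif4g3).

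Transcription start regions were read for the members on which the emodin comparison turns: the 5 that rose on both scalings, and Eif3b, Eif4a1 and Eif4g1, which fell while other genes of the same complexes rose on the 75th percentile scale. Transcripts of many translation factors are known to begin with a C followed by a run of pyrimidines, the TOP motif through which mTORC1 controls their translation. Capitals mark a C followed by 5 or more C or T on the sense strand, within 30 bases before and 30 after the start annotated by RefSeq on GRCm38.p6.
Eif4b (chr15:102073743-102073802, plus strand): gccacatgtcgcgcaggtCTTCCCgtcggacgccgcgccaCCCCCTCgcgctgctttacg
Eif4a2 (chr16:23107438-23107497, plus strand): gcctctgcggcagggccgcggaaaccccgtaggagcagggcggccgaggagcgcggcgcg
Eif3a (chr19:60790664-60790723, minus strand): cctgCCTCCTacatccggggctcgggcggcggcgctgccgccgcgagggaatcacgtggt
Eif3f (chr7:108934385-108934444, plus strand): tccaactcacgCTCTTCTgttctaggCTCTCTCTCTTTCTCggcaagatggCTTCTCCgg
Eef2 (chr10:81176601-81176660, plus strand): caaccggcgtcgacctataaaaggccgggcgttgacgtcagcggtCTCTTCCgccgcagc
Eif3b (chr5:140419275-140419334, plus strand): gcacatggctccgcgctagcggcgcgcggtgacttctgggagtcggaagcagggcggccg
Eif4a1 (chr11:69672394-69672453, minus strand): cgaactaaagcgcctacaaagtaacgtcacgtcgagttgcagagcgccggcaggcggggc
Eif4g1 (chr16:20672697-20672756, plus strand): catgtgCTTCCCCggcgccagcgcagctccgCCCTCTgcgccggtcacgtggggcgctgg
Such a run was present for Eif4b, Eif3a, Eif3f and Eef2, but not for Eif4a2, and was present for Eif4g1 but not for Eif3b or Eif4a1. Only Eif3f had a run across the annotated start. The Eif3a run lay before the start, the Eef2 run after it, and Eif4b and Eif4g1 had runs on either side. A run in the window is therefore not by itself a TOP motif.

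Promoters were in the RefSeq table for 48 of the 61 members and for 10527 tested genes. The pyrimidine run was found in 20 of the 48 members (41.7%), against 39.9% of all tested genes. The palindrome CACGTG, the E-box bound by Myc among others, was found in the window from 250 bases before to 50 after the start in 12 of 48 members (25%) and 9.92% of tested genes. The Ets-type letters CCGGAAG, on either strand, were found in 29.2% of members and 17.4% of tested genes, and the palindrome TGACGTCA in 2.08% of members and 3.18% of tested genes. Among the 25 members that rose and the 12 that fell with emodin on the 75th percentile scale, the pyrimidine run stood in 14 and 4, CACGTG in 6 and 5, CCGGAAG in 9 and 1, and TGACGTCA in 1 and 0. These are letter matches in fixed windows around annotated starts, not sites shown to be used.

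Of 6 genes for start-codon selection and scanning, 3 rose and 0 fell in LPS_IFNg against control, and 2 rose and 0 fell with emodin on the 75th percentile scale, whereas 0 rose and 4 fell on the spike-in scale. Eif1, whose product keeps the scanning ribosome from stopping at wrong codons, was at 7.22, 7.34, 7.34 and 7.25 on the LPS_IFNg_emodin arrays, 7.14, 7.47, 7.40 and 7.32 on the LPS_IFNg arrays and 6.29, 6.26, 6.25 and 6.26 on the control arrays. Eif5, which triggers GTP hydrolysis by eIF2 at the start codon, was at 5.44, 5.86, 5.73 and 5.59 on the LPS_IFNg_emodin arrays, 5.67, 5.67, 5.55 and 5.63 on the LPS_IFNg arrays and 4.59, 4.58, 4.59 and 4.71 on the control arrays. For both genes every array of the treated groups lay above every control array, while the treated groups overlapped each other. Against control the change in LPS_IFNg was 1.07 ± 0.074 (SE, adjusted p = 1.12e-07) for Eif1 and 1.01 ± 0.087 (SE, adjusted p = 6.88e-07) for Eif5. Against LPS_IFNg, with emodin, neither was called, at -0.044 ± 0.074 (SE, adjusted p = 0.609) and 0.022 ± 0.087 (SE, adjusted p = 0.827), whereas on the spike-in scale both fell, Eif1 with a change of -0.73 ± 0.15 (SE, adjusted p = 0.00141) and Eif5 of -0.66 ± 0.16 (SE, adjusted p = 0.00319). The Eif1 result depended on the probe: a dimmer probe gave 0.47 with emodin (adjusted p = 2.35e-05 in limma over all kept probes), called as a rise, and -0.21 after the spike-in shift. Eif1a rose in LPS_IFNg (0.52) and again with emodin (0.73, and 0.044, not called, on the spike-in scale). Eif1ax, an X-linked relative, had changes of 0.15 and 0.10, neither called, and fell on the spike-in scale with a change of -0.58 ± 0.13 (SE, adjusted p = 0.00243). Eif1ad, which acts in ribosome maturation and is counted here by its name, rose with emodin by 0.39 on the 75th percentile scale. It was not called on the spike-in scale, at -0.29. A dimmer Eif1ad probe gave 0.10 with emodin (adjusted p = 0.354 in limma over all kept probes), not called. In LPS_IFNg against control that probe gave 0.91, called as a rise, where the probe used was not called.

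For the probes used, all 4 genes of the eIF2 group rose with emodin on the 75th percentile scale, where 36.1% of all genes rose. None of the 4 was called on the spike-in scale. Eif2s1, the alpha subunit that stress kinases phosphorylate, was at 4.96, 4.96, 4.997 and 5.13 on the LPS_IFNg_emodin arrays, 4.49, 4.41, 4.35 and 4.44 on the LPS_IFNg arrays and 4.45, 4.40, 4.23 and 4.07 on the control arrays. Eif2s2, the beta subunit, was at 6.71, 6.66, 6.68 and 6.76 on the LPS_IFNg_emodin arrays, 6.04, 5.85, 5.83 and 5.97 on the LPS_IFNg arrays and 5.53, 5.49, 5.16 and 5.14 on the control arrays. The emodin arrays stood above all others for both genes. The change against LPS_IFNg was 0.59 ± 0.087 (SE, adjusted p = 6.99e-05) for Eif2s1 and 0.78 ± 0.099 (SE, adjusted p = 1.96e-05) for Eif2s2; on the spike-in scale these were -0.095 ± 0.14 (SE, adjusted p = 0.546) and 0.097 ± 0.13 (SE, adjusted p = 0.508). Eif2s2 was also higher in LPS_IFNg than in control, by 0.59 ± 0.099 (SE, adjusted p = 0.000199), but a dimmer probe of it gave -0.58 there, called in the opposite direction. A dimmer Eif2s1 probe likewise gave -0.68 for emodin, LPS and interferon gamma against control, where the probe used gave 0.72. With emodin against LPS_IFNg that Eif2s1 probe gave 0.26 (adjusted p = 0.265 in limma over all kept probes), not called. The dimmer Eif2s2 probe gave 1.37 there, called as a rise, and 0.69 after the spike-in shift. Eif2a and Eif2d, which can deliver initiator tRNA by other routes, rose with emodin by 0.69 and 0.91 on the 75th percentile scale.

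The 5 eIF2B subunits did not move together. Eif2b2, the beta subunit, was at 6.91, 6.92, 6.77 and 6.89 on the LPS_IFNg_emodin arrays, 6.12, 6.02, 5.92 and 6.06 on the LPS_IFNg arrays and 5.59, 5.44, 5.33 and 5.28 on the control arrays. Its levels were stepped, with the emodin arrays highest and the control arrays lowest and no overlap. Its change was 0.62 ± 0.080 (SE, adjusted p = 2.47e-05) in LPS_IFNg against control and 0.84 ± 0.080 (SE, adjusted p = 1.74e-06) with emodin against LPS_IFNg, where the spike-in scale gave 0.16 ± 0.14 (SE, adjusted p = 0.303), not called. Eif2b5, the catalytic epsilon subunit, was at 2.12, 2.14, 2.000 and 2.09 on the LPS_IFNg_emodin arrays, 2.23, 2.19, 2.36 and 2.25 on the LPS_IFNg arrays and 1.88, 1.93, 1.75 and 1.67 on the control arrays. Both treated groups lay above control for Eif2b5, which rose in LPS_IFNg by 0.45 ± 0.073 (SE, adjusted p = 0.000155). Its emodin change was -0.17 ± 0.073 (SE, adjusted p = 0.0527), not called, and -0.85 ± 0.13 (SE, adjusted p = 0.000155) on the spike-in scale, a fall. Eif2b3 fell with emodin by a log2 change of -0.89 ± 0.16 (SE, adjusted p = 0.000322) on the 75th percentile scale and of -1.57 on the spike-in scale.

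Among the 13 measured eIF3 subunits, 3 rose, 3 fell and 7 were not called in LPS_IFNg against control. With emodin 11 rose and 2 fell on the 75th percentile scale. The shares called were 46.2% in LPS_IFNg and 100% with emodin on that scale, beside 69.0% and 72.0% of all genes. On the spike-in scale 2 rose and 2 fell with emodin, with a median of -0.10. Eif3a, the largest core subunit, was at 3.71, 3.80, 3.74 and 3.84 on the LPS_IFNg_emodin arrays, 2.23, 2.55, 2.43 and 2.51 on the LPS_IFNg arrays and 3.13, 3.11, 2.97 and 3.17 on the control arrays. Eif3b, the other scaffold of the core, was at 3.48, 3.58, 3.48 and 3.70 on the LPS_IFNg_emodin arrays, 4.05, 4.20, 4.16 and 4.12 on the LPS_IFNg arrays and 3.40, 3.25, 3.21 and 3.37 on the control arrays. The pair ran opposite ways: Eif3a was lowest on LPS_IFNg arrays and Eif3b highest there, with no overlap between any of the groups. In LPS_IFNg against control the change was -0.67 ± 0.080 (SE, adjusted p = 1.42e-05) for Eif3a and 0.83 ± 0.073 (SE, adjusted p = 9.65e-07) for Eif3b. Emodin against LPS_IFNg gave 1.35 ± 0.080 (SE, adjusted p = 4.02e-08) for Eif3a and -0.57 ± 0.073 (SE, adjusted p = 2.25e-05) for Eif3b. These comparisons share the LPS_IFNg arrays. On the spike-in scale Eif3a still rose, by 0.66 ± 0.16 (SE, adjusted p = 0.00365), and Eif3b still fell, with a change of -1.26 ± 0.15 (SE, adjusted p = 2.67e-05).

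Eif3f, a subunit with a deubiquitinase-type fold, was at 6.04, 6.11, 6.07 and 6.05 on the LPS_IFNg_emodin arrays, 4.80, 4.87, 4.76 and 4.90 on the LPS_IFNg arrays and 4.81, 4.78, 5.04 and 4.90 on the control arrays. Emodin arrays stood apart from both other groups, which overlapped. Its change with emodin was 1.23 ± 0.070 (SE, adjusted p = 2.56e-08), and 0.55 ± 0.14 (SE, adjusted p = 0.00404) on the spike-in scale. The remaining risers lay between 0.36 for Eif3i and 0.83 for Eif3e on the 75th percentile scale, and none of these was called on the spike-in scale. Eif3c differed by probe: against control the probe used gave 0.61 in LPS_IFNg and 1.26 in LPS_IFNg_emodin. A dimmer Eif3c probe gave -0.10 and 0.21 (adjusted p = 0.426 and 0.111 in limma over all kept probes), neither called. With emodin against LPS_IFNg that probe was called as a rise, at 0.31. Eif3j1, a loosely bound subunit, had a change of -0.23 ± 0.095 (SE, adjusted p = 0.0481) with emodin. Treating the replicate numbers as pairs gave adjusted p = 0.0653 over the 8 arrays of these groups and ended that call. A dimmer Eif3j1 probe gave -0.085 (adjusted p = 0.349 in limma over all kept probes), not called. In LPS_IFNg against control that probe gave -0.64, called as a fall, where the probe used was not called. Eif3k was called lower in LPS_IFNg than in control at -0.29 ± 0.12 (SE, adjusted p = 0.0499), a call that leaving out any of 10 of the 12 arrays ended.

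**Figure D3:**
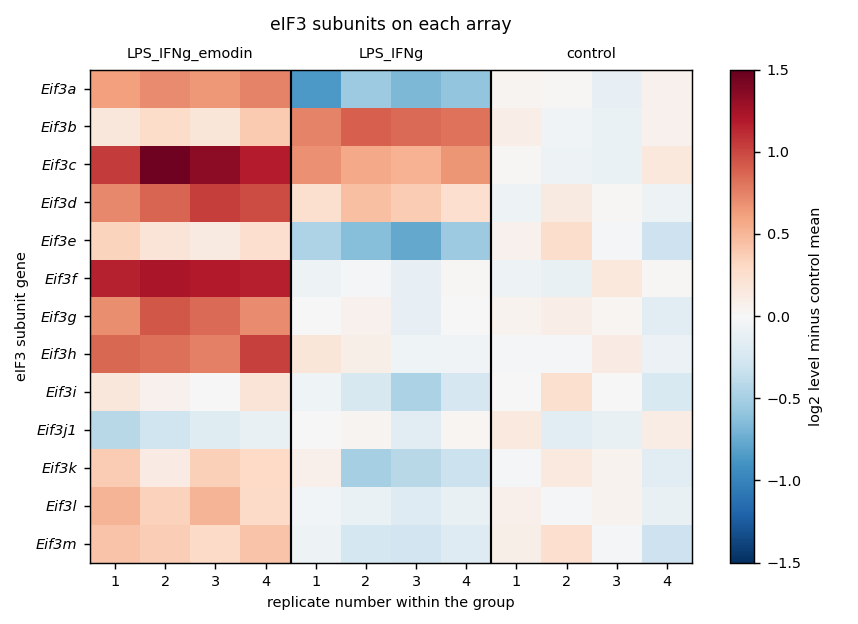
Level of each eIF3 subunit on each of the 12 arrays (columns, by group and replicate number) minus that subunit's control mean, in log2 units, red for higher and blue for lower. Eif3c and Eif3f are among the reddest rows on the LPS_IFNg_emodin arrays, and Eif3a is blue on LPS_IFNg arrays where Eif3b is red. Another Eif3c probe, not shown, gave 0.21 in LPS_IFNg_emodin against control, not called.

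The helicase group split within itself when emodin was added. Eif4a1, the main eIF4A helicase, was at 6.93, 6.99, 7.07 and 7.16 on the LPS_IFNg_emodin arrays, 7.49, 7.45, 7.38 and 7.46 on the LPS_IFNg arrays and 7.56, 7.77, 7.44 and 7.53 on the control arrays. Eif4a2, its close relative, was at 5.76, 5.84, 5.74 and 5.75 on the LPS_IFNg_emodin arrays, 4.52, 4.37, 4.46 and 4.46 on the LPS_IFNg arrays and 4.45, 4.56, 4.35 and 4.42 on the control arrays. Eif4b, which stimulates the helicase, was at 5.21, 5.21, 5.21 and 5.16 on the LPS_IFNg_emodin arrays, 3.84, 3.62, 3.64 and 3.71 on the LPS_IFNg arrays and 3.40, 3.48, 3.66 and 3.51 on the control arrays. Emodin arrays were above all others for Eif4a2 and Eif4b and below all others for Eif4a1. The change against LPS_IFNg was 1.49 ± 0.072 (SE, adjusted p = 8.83e-09) for Eif4b, 1.32 ± 0.064 (SE, adjusted p = 9.47e-09) for Eif4a2 and -0.41 ± 0.080 (SE, adjusted p = 0.000618) for Eif4a1. The directions were the same on the spike-in scale, at 0.81 ± 0.12 (SE, adjusted p = 0.000117) for Eif4b, 0.63 ± 0.13 (SE, adjusted p = 0.00100) for Eif4a2 and -1.09 ± 0.14 (SE, adjusted p = 4.11e-05) for Eif4a1. In LPS_IFNg against control neither helicase was called; Eif4b was, at 0.19 ± 0.072 (SE, adjusted p = 0.0339), but with a replicate block adjusted p = 0.0653. Eif4h, a relative of Eif4b, rose with emodin by 0.77, not called on the spike-in scale (0.086).

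Cap-binding genes differed from one another. Eif4e, the cap-binding protein of eIF4F, was at 4.22, 4.19, 4.39 and 4.28 on the LPS_IFNg_emodin arrays, 4.01, 3.85, 3.81 and 3.87 on the LPS_IFNg arrays and 3.37, 3.39, 2.99 and 2.92 on the control arrays. Eif4e2, which binds caps without recruiting eIF4G efficiently, was at 5.73, 5.72, 5.79 and 5.81 on the LPS_IFNg_emodin arrays, 4.86, 4.90, 4.92 and 4.85 on the LPS_IFNg arrays and 4.45, 4.49, 4.40 and 4.36 on the control arrays. Eif4e3, a further cap-binding relative, was at -2.29, -1.83, -2.20 and -1.93 on the LPS_IFNg_emodin arrays, -0.031, 0.010, 0.034 and -0.14 on the LPS_IFNg arrays and -0.041, 0.11, -0.045 and 0.15 on the control arrays. For Eif4e and Eif4e2 the emodin arrays were highest and the control arrays lowest; for Eif4e3 the emodin arrays lay below both other groups. Eif4e rose in LPS_IFNg by 0.72 ± 0.11 (SE, adjusted p = 0.000107). Emodin changed it by 0.38 ± 0.11 (SE, adjusted p = 0.00815) against LPS_IFNg on the 75th percentile scale and by -0.30 ± 0.12 (SE, adjusted p = 0.0483), a fall, on the spike-in scale. A dimmer Eif4e probe gave 1.56 with emodin (adjusted p = 1.77e-07 in limma over all kept probes), and 0.88 after the spike-in shift, the opposite sign to the probe used. Eif4e2 changed by 0.88 ± 0.057 (SE, adjusted p = 7.08e-08), and 0.20 ± 0.13 (SE, adjusted p = 0.188) on the spike-in scale. Eif4e3 fell with emodin with a change of -2.03 ± 0.10 (SE, adjusted p = 1.27e-08), and -2.71 ± 0.18 (SE, adjusted p = 2.78e-07) on the spike-in scale.

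The 3 genes of the eIF4G family fell with emodin, with log2 changes of -0.40, -0.48 and -0.56 for Eif4g1, Eif4g2 and Eif4g3. Eif4g1, the main scaffold, was at 4.59, 4.78, 4.72 and 4.70 on the LPS_IFNg_emodin arrays, 4.89, 5.19, 5.14 and 5.18 on the LPS_IFNg arrays and 5.16, 4.74, 5.08 and 5.16 on the control arrays. Eif4g3 was at 2.45, 2.61, 2.56 and 2.32 on the LPS_IFNg_emodin arrays, 2.64, 3.099, 3.36 and 3.06 on the LPS_IFNg arrays and 2.23, 2.01, 2.40 and 2.59 on the control arrays. Emodin arrays were below all LPS_IFNg arrays for both. For Eif4g1 the change was -0.40 ± 0.11 (SE, adjusted p = 0.00440) with emodin and 0.067 ± 0.11 (SE, adjusted p = 0.588) in LPS_IFNg against control. Eif4g3 rose in LPS_IFNg, by 0.73 ± 0.15 (SE, adjusted p = 0.00120), but a dimmer Eif4g3 probe gave 1.23 with emodin, called in the opposite direction to the probe used.

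The eIF4E-binding protein genes went different ways. Eif4ebp1 was at 6.34, 6.34, 6.16 and 6.38 on the LPS_IFNg_emodin arrays, 6.90, 6.55, 6.78 and 6.67 on the LPS_IFNg arrays and 6.13, 6.30, 6.14 and 5.84 on the control arrays. Eif4ebp2 was at 1.81, 2.03, 1.84 and 1.87 on the LPS_IFNg_emodin arrays, 1.45, 1.80, 1.79 and 1.65 on the LPS_IFNg arrays and 3.09, 3.07, 3.38 and 3.71 on the control arrays. Eif4ebp3 was at 3.104, 3.38, 3.49 and 3.39 on the LPS_IFNg_emodin arrays, 2.07, 2.44, 2.39 and 2.30 on the LPS_IFNg arrays and 2.50, 2.29, 2.47 and 2.66 on the control arrays. LPS_IFNg arrays were highest for Eif4ebp1, control arrays were highest for Eif4ebp2, and emodin arrays were highest for Eif4ebp3. In LPS_IFNg against control Eif4ebp1 rose by 0.62 ± 0.11 (SE, adjusted p = 0.000229) and Eif4ebp2 fell with a change of -1.64 ± 0.14 (SE, adjusted p = 6.20e-07), whereas Eif4ebp3 was not called at -0.18 ± 0.11 (SE, adjusted p = 0.180). With emodin against LPS_IFNg Eif4ebp1 fell with a change of -0.42 ± 0.11 (SE, adjusted p = 0.00356). Eif4ebp2 changed by 0.21 ± 0.14 (SE, adjusted p = 0.183), with adjusted p = 0.0431 when replicate numbers were treated as pairs over 8 arrays, and fell on the spike-in scale. Eif4ebp3 rose by 1.04 ± 0.11 (SE, adjusted p = 5.12e-06), and was not called on the spike-in scale at 0.36 ± 0.18 (SE, adjusted p = 0.0924).

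**Figure D4:**
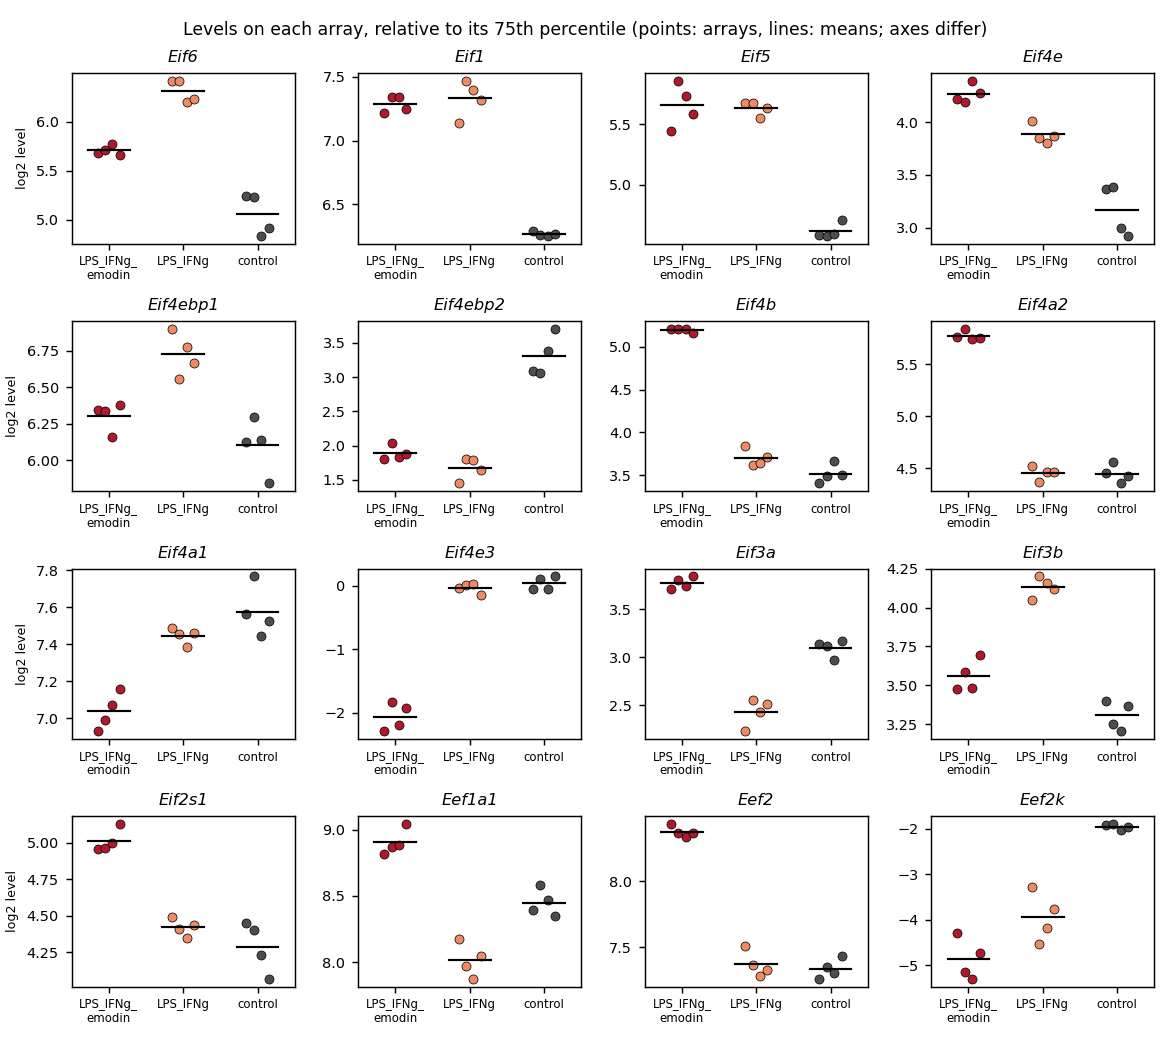
Log2 level of 16 members on each of the 12 arrays, relative to the 75th percentile of the array, with LPS_IFNg_emodin at the left, LPS_IFNg in the middle and control at the right; points are arrays, lines are group means and each panel has its own y axis. Eif1 and Eif5 are high in both treated groups, Eif4b, Eif4a2 and Eef2 stand apart in LPS_IFNg_emodin, and Eif4ebp2 and Eef2k are highest in control.

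The largest rise in LPS_IFNg among the 61 members was in a late initiation factor. Eif6, which keeps the large ribosomal subunit from joining too early, was at 5.68, 5.72, 5.78 and 5.66 on the LPS_IFNg_emodin arrays, 6.42, 6.42, 6.20 and 6.24 on the LPS_IFNg arrays and 5.24, 5.23, 4.83 and 4.92 on the control arrays. All 3 groups were separate, with LPS_IFNg highest. Eif6 rose in LPS_IFNg by 1.26 ± 0.10 (SE, adjusted p = 3.95e-07) and fell with emodin against LPS_IFNg with a change of -0.61 ± 0.10 (SE, adjusted p = 0.000188), or -1.29 ± 0.13 (SE, adjusted p = 5.83e-06) on the spike-in scale. Eif5b, the GTPase that joins the subunits, was well above background on control arrays alone. Its measured levels were -6.47, -5.27, -6.28 and -5.55 on the LPS_IFNg_emodin arrays, -4.70, -5.11, -5.12 and -5.04 on the LPS_IFNg arrays and -3.88, -4.09, -3.88 and -3.76 on the control arrays. It was at least 1.23-fold lower in LPS_IFNg than in control and at least 1.27-fold lower in LPS_IFNg_emodin than in control. These bounds are set by the dimmest signal marked well above background on each array. They are approximate, because that mark is given per probe and is not 1 fixed signal. No fold is given between the treated groups, where both were below background.

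Eif5a, which carries the amino acid hypusine and relieves stalled ribosomes, was at 5.62, 5.54, 5.37 and 5.77 on the LPS_IFNg_emodin arrays, 5.88, 5.91, 5.80 and 5.92 on the LPS_IFNg arrays and 5.72, 5.67, 5.50 and 5.39 on the control arrays. LPS_IFNg arrays lay above the others, which overlapped. Its change was 0.31 ± 0.097 (SE, adjusted p = 0.0136) in LPS_IFNg against control and -0.30 ± 0.097 (SE, adjusted p = 0.0143) with emodin against LPS_IFNg. Its relative Eif5a2 fell in both comparisons, with changes of -0.40 and -0.60.

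Of 7 genes listed as elongation factors, 2 rose and 3 fell in LPS_IFNg against control. With emodin 6 rose and 1 fell on the 75th percentile scale, against 1 and 1 on the spike-in scale. The shares called were 71.4% in LPS_IFNg and 100% with emodin on the 75th percentile scale, beside 69.0% and 72.0% of all genes. Eef1e1, counted here by its name, is among the risers in LPS_IFNg and is the faller with emodin. Eef1a1, the eEF1A of most tissues, was at 8.82, 8.87, 8.88 and 9.04 on the LPS_IFNg_emodin arrays, 8.18, 7.97, 7.88 and 8.04 on the LPS_IFNg arrays and 8.39, 8.59, 8.47 and 8.35 on the control arrays. Eef2, the translocase, was at 8.43, 8.37, 8.33 and 8.37 on the LPS_IFNg_emodin arrays, 7.51, 7.36, 7.28 and 7.33 on the LPS_IFNg arrays and 7.26, 7.35, 7.31 and 7.44 on the control arrays. For both genes the emodin arrays were highest; for Eef1a1 the LPS_IFNg arrays were lowest, and for Eef2 the other groups overlapped. Eef1a1 fell in LPS_IFNg against control, with a change of -0.43 ± 0.085 (SE, adjusted p = 0.000681), and rose with emodin against LPS_IFNg by 0.89 ± 0.085 (SE, adjusted p = 1.86e-06); on the spike-in scale it was not called, at 0.20 ± 0.14 (SE, adjusted p = 0.223). Eef2 was not called in LPS_IFNg, at 0.034 ± 0.068 (SE, adjusted p = 0.671), and rose with emodin by 1.002 ± 0.068 (SE, adjusted p = 1.08e-07) and by 0.32 ± 0.12 (SE, adjusted p = 0.0343) on the spike-in scale. Pseudogene copies of Eef1a1 are many, and the specificity of the probes was not checked.

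Eef1a2, the eEF1A of muscle and nerve, was at -2.33, -2.45, -3.08 and -1.81 on the LPS_IFNg_emodin arrays, -2.89, -3.06, -4.03 and -2.85 on the LPS_IFNg arrays and 0.19, -0.26, -0.76 and -0.023 on the control arrays. It was well above background on 3 of 4 LPS_IFNg arrays and all others, and control arrays lay above both treated groups. It fell in LPS_IFNg with a change of -2.996 ± 0.32 (SE, adjusted p = 4.49e-06), while the emodin change of 0.79 ± 0.32 (SE, adjusted p = 0.0408) was lost on leaving out any of 7 of the 12 arrays and was 0.11 ± 0.34 (SE, adjusted p = 0.782), not called, on the spike-in scale. The exchange-factor genes Eef1b2, Eef1d and Eef1g rose with emodin by 0.54, 0.91 and 0.56 on the 75th percentile scale, none called on the spike-in scale. Eef1e1, which belongs to the tRNA synthetase complex and not to eEF1B, was at 1.47, 1.72, 1.83 and 1.70 on the LPS_IFNg_emodin arrays, 2.75, 2.71, 2.50 and 2.72 on the LPS_IFNg arrays and 2.35, 2.31, 1.65 and 1.59 on the control arrays. LPS_IFNg arrays were highest. Its change was 0.69 ± 0.17 (SE, adjusted p = 0.00327) in LPS_IFNg against control and -0.99 ± 0.17 (SE, adjusted p = 0.000243) with emodin.

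Of 6 genes for enzymes that modify elongation factors, 4 fell and 1 rose with emodin on the 75th percentile scale, and 5 fell and 0 rose on the spike-in scale. Eef2k, whose product phosphorylates and slows eEF2, was at -4.29, -5.15, -5.30 and -4.74 on the LPS_IFNg_emodin arrays, -3.28, -4.54, -4.18 and -3.77 on the LPS_IFNg arrays and -1.93, -1.90, -2.03 and -1.96 on the control arrays. It was well above background on 0 LPS_IFNg_emodin arrays, 2 LPS_IFNg arrays and 4 control arrays. Both treated groups lay below control, by at least 4.91-fold in LPS_IFNg_emodin, an approximate bound of the kind used for Eif5b. In LPS_IFNg the measured log2 change against control was -1.99, where 2 arrays give only a bound. In LPS_IFNg_emodin against LPS_IFNg the measured log2 change of Eef2k was -0.93 (adjusted p = 0.00710). No bound is given there, since neither group was well above background on all of its arrays. The groups overlapped, normexp background correction gave 0.072, not called, and another Eef2k probe gave -0.36 (adjusted p = 0.222), not called.

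Among the lysine methyltransferases of eEF1A, Eef1akmt2 was at 0.61, 0.36, 0.079 and 0.56 on the LPS_IFNg_emodin arrays, 1.78, 1.58, 1.61 and 1.66 on the LPS_IFNg arrays and 1.61, 1.92, 1.58 and 1.53 on the control arrays. Eef1akmt4 was at 4.34, 4.33, 4.28 and 4.38 on the LPS_IFNg_emodin arrays, 5.30, 5.34, 5.06 and 5.30 on the LPS_IFNg arrays and 4.67, 4.83, 4.52 and 4.29 on the control arrays. Emodin arrays were lowest for Eef1akmt2 and were below the LPS_IFNg arrays for Eef1akmt4. The changes with emodin were -1.25 ± 0.12 (SE, adjusted p = 2.17e-06) and -0.91 ± 0.11 (SE, adjusted p = 1.10e-05). Eef1aknmt, which methylates the start and a lysine of eEF1A, was at -1.69, -1.32, -1.21 and -1.29 on the LPS_IFNg_emodin arrays, -1.84, -1.68, -1.997 and -1.66 on the LPS_IFNg arrays and -0.97, -0.96, -0.81 and -0.92 on the control arrays. Control arrays were highest, and its change in LPS_IFNg was -0.88 ± 0.11 (SE, adjusted p = 2.00e-05).

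Differences between related members within an array are the same under both the 75th percentile and the spike-in scaling, which shift all genes of an array alike; quantile scaling can change them. The 12 paralogue pairs were chosen with values known and are described without a test. There was no overlap between arrays for 10 pairs in LPS_IFNg against control and for 7 with emodin against LPS_IFNg. Single genes did not overlap for 64.4% and 67.5% of all genes. The share over other gene pairs was not computed, so the pair counts are not read as a trait of these factors. The difference Eif4a2 minus Eif4a1 was -1.41 to -1.15 on the LPS_IFNg_emodin arrays, -3.09 to -2.92 on the LPS_IFNg arrays and -3.21 to -3.09 on the control arrays. Eif4e3 minus Eif4e was -6.59 to -6.02 on the LPS_IFNg_emodin arrays, -4.04 to -3.77 on the LPS_IFNg arrays and -3.41 to -2.77 on the control arrays. Eif4ebp2 minus Eif4ebp1 was -4.54 to -4.31 on the LPS_IFNg_emodin arrays, -5.46 to -4.75 on the LPS_IFNg arrays and -3.23 to -2.13 on the control arrays. Of these 3 pairs the cap-binding pair had the largest shift with emodin, and the binding-protein pair had its larger shift in LPS_IFNg against control. For the eIF3 core subunits, which are not paralogues, Eif3a minus Eif3b was 0.14 to 0.26 on the LPS_IFNg_emodin arrays, -1.82 to -1.61 on the LPS_IFNg arrays and -0.27 to -0.14 on the control arrays.

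**Figure D5:**
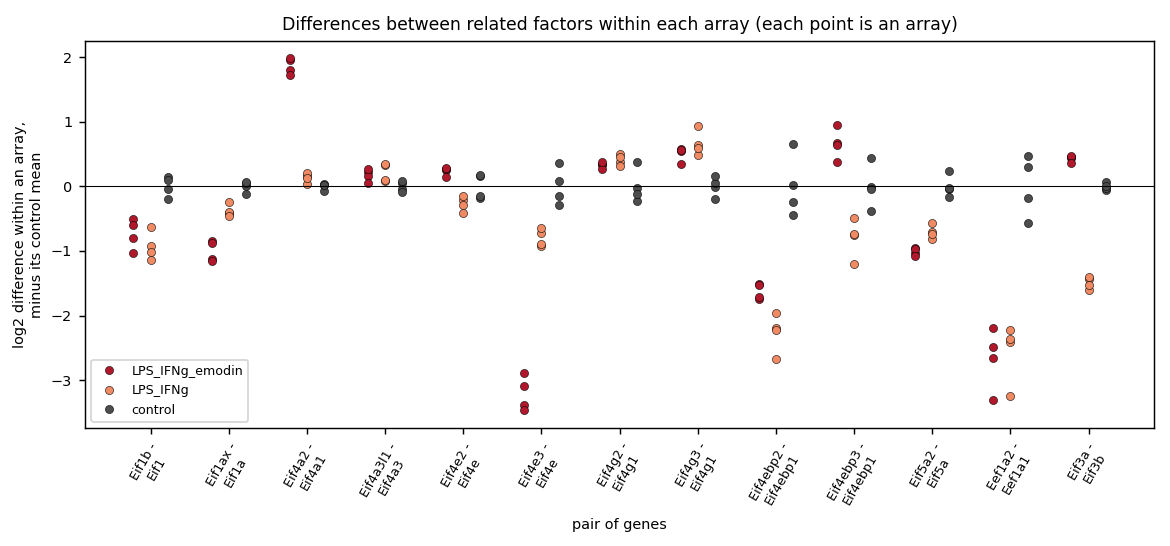
Log2 difference between 2 related members on each array, minus its mean over control arrays, for the 12 paralogue pairs and, at the right, Eif3a minus Eif3b; colours give the groups and each point is an array. The Eif4a2 minus Eif4a1 points of LPS_IFNg_emodin lie highest, and the Eif4e3 minus Eif4e points of that group lowest.

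Neighbouring genes of the same pathway were read from lists, with the background shares given above. Of 8 eIF2 kinase and phosphatase genes, 7 rose and 1 fell in LPS_IFNg against control. Eif2ak2 (PKR), the interferon-induced kinase activated by double-stranded RNA, changed by 3.20 ± 0.17 there and by -2.03 ± 0.17 with emodin against LPS_IFNg. Ppp1r15a and Ppp1r15b, the phosphatase subunits that reverse eIF2 phosphorylation, rose in LPS_IFNg by 1.42 ± 0.073 and 1.03 ± 0.062, and with emodin by 1.29 ± 0.073 and 1.15 ± 0.062 (mean and SE).

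Of 14 genes of mTORC1 and eIF4E signalling, 3 rose and 6 fell in LPS_IFNg, and 7 rose and 2 fell with emodin. Deptor, an mTOR inhibitor, had measured changes of -4.11 ± 0.18 in LPS_IFNg and -2.33 ± 0.18 with emodin, without its detection in the treated groups being given. Mknk1 and Mknk2, the kinases of eIF4E, fell in LPS_IFNg with changes of -0.68 ± 0.093 and -0.60 ± 0.097 and rose with emodin by 1.08 ± 0.093 and 1.20 ± 0.097. Pdcd4, an inhibitor of eIF4A, changed by -1.62 ± 0.092 in LPS_IFNg, and Larp1, which binds TOP transcripts, by 1.53 ± 0.15.

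With emodin, 4 of 5 genes of poly(A)-binding proteins and cofactors rose and 0 fell, led by Pabpc4 at 1.49 ± 0.084; in LPS_IFNg 1 rose and 2 fell. Among 9 termination and recycling genes 5 rose and 2 fell with emodin, including the release factor Etf1 at 1.27 ± 0.11, the rescue factor Pelo at 1.32 ± 0.099 and Gspt2 at -2.85 ± 0.18; in LPS_IFNg 4 rose and 1 fell. The 23 cytosolic tRNA synthetase and complex genes showed 14 rises and 2 falls in LPS_IFNg, with Wars, an interferon-induced synthetase, at 2.85 ± 0.073, and 9 rises and 7 falls with emodin. Of 9 mitochondrial translation factors, 1 rose and 3 fell in LPS_IFNg, and 3 rose and 4 fell with emodin. These emodin values are on the 75th percentile scale, and the shift of -0.68 applies to them on the spike-in scale.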

How the data were processed

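Total RNA of 12 cultures was labelled with Cy3 and hybridised singly. The submitters' processing notes name Agilent Feature Extraction (version 10.7.3.1); the deposited intensity values are that software's processed signals, per the file headers. The background and trend steps behind them are not given in the sources used here, and the headers list a background-subtracted signal beside them. The authors also deposited a value table on the log2 scale, whose rows had been centred; the column labelled control replicate 1 followed the array of control 4, that of control 3 followed control 1, and that of control 4 followed control 3; its column medians ran from -0.0316 to 0.0416, and its scaling is not given in the sources used here. Each array had 62976 spots, of which 59305 were not controls; 78 to 415 outlier spots per array were left out.

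From the scanner files, the processed signal was averaged over the spots of a probe, and the log2 of the array's 75th percentile was subtracted from the log2 of this average. Probes well above background on all 4 arrays of a group were kept (27380 of 55681, 17168 with a symbol), probes were named through RefSeq accessions (27509 named, 28172 not), and the brightest of several probes stood for a gene (3355 genes). The number of arrays limits the precision. limma 3.58.1 in R 4.3.3 fitted 3 group means over all 12 arrays (9 residual and 2.49 prior degrees of freedom); the fit was tested on simulated data. Figures were drawn with matplotlib 3.10.9.

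Members, role lists and tests were chosen with earlier results of these data known. Array values are given for the 5 largest called rises and falls of each comparison and for 11 members named by role, of which Eif4ebp2 and Eef2k are in both sets. Same-numbered LPS_IFNg_emodin and LPS_IFNg arrays deviated together from their group means (correlations 0.229, 0.283, 0.162 and 0.15), so these numbers may mark pairs. Where pairing comes from is not given in the sources used here. The main fit did not use the pairing, so its standard errors and adjusted p values are unpaired, and a replicate block was fitted only as an alternative. Other scalings, background correction, probe filters, probe averaging, pairing and left-out arrays were tried. Sequences are from RefSeq on GRCm38.p6, used for names and start regions; protein sequences were not used here. One further lymphocyte marker is not reported here.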

Additional observations from a re-analysis of the deposited data

Results flagged for a closer look

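In 183 combinations of member and group, 8 (4.37%) held 1 array that stood apart from the other 3 by Dixon's criterion; chance gives about 5%. On LPS_IFNg replicate 3, an array whose sex-linked genes go against its label, Eef1akmt4 was at 5.06 with the others at 5.30 to 5.34, Eef1e1 at 2.497 with the others at 2.71 to 2.75, and Eif3j1 at 2.56 with the others at 2.74 to 2.77. On LPS_IFNg replicate 1, Eif4g1 was at 4.89, below 5.14 to 5.19 on the others. On the LPS_IFNg_emodin arrays, Eif2b3 was at -0.031 on replicate 1 (0.267 to 0.325 on the others), Eif4a2 at 5.84 on replicate 2 (5.74 to 5.76) and Eif4b at 5.16 on replicate 4 (5.21 on each of the others). On control replicate 4, Eif5 was at 4.71, above 4.58 to 4.59 on the others. Values are log2 levels relative to the 75th percentile of the array.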

How the results depend on the processing

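Leaving out each array in turn gave 19 to 22 rises and 13 to 16 falls among members in LPS_IFNg against control (4249 to 4482 and 4323 to 4673 over all genes), 31 to 32 and 17 to 19 with emodin against LPS_IFNg (4520 to 4850 and 4545 to 4808), and 32 to 38 and 12 to 16 in LPS_IFNg_emodin against control (5096 to 5275 and 4863 to 5067). Some omission ended the calls of Eif3k, Eif4b and Eif4h in the first comparison, Eef1a2 and Eif3j1 in the second, and Eef2kmt, Eif1b, Eif2b1, Eif3j1 and Eif3k in the third. Counts moved by over 1.5 times in these cases: member falls in LPS_IFNg against control, 14 here, were 26 under quantile scaling and 25 in the deposited value table; spike-in scaling of the emodin comparison gave 5 member rises and 31 falls, and 1202 rises and 8525 falls over all genes; and with no filter on dim probes, which tests more genes, all-gene rises were 7891 in LPS_IFNg and 8396 in LPS_IFNg_emodin against control. With the replicate numbers as a block over 12 arrays, members gave 20 rises and 13 falls in LPS_IFNg against control, 33 and 17 with emodin against LPS_IFNg, and 33 and 15 in LPS_IFNg_emodin against control. The block ended the calls of Eif3k (adjusted p = 0.0573) and Eif4b (0.0653) in the first comparison, Eif3j1 (0.0605) in the second and Eif3k (0.0546) in the third, called Eif4a3 (0.0468) with emodin, and over the 8 treated arrays called Eif4ebp2 (0.0431); it changed no other member's call. Same-numbered arrays of a treated group and control correlated at -0.187 to 0.142. The deposited columns of controls 1, 3 and 4 followed other control arrays, so these correlations cannot decide whether the numbers pair those groups. The following log2 changes changed sign; the cause was not tested. In LPS_IFNg against control, quantile scaling turned the sign of Eef2 -0.20, Eif3h -0.21, Eif4a2 -0.17 and Eif4h -0.13. In LPS_IFNg against control, the deposited value table turned the sign of Eef2 -0.21, Eif3h -0.21, Eif4a2 -0.17 and Eif4h -0.14. In LPS_IFNg against control, the mean of a gene's probes turned the sign of Eif2s1 -0.40. With emodin against LPS_IFNg, spike-in scaling turned the sign of Eef1aknmt -0.27, Eef1b2 -0.14, Eef1g -0.12, Eef2kmt -0.63, Eif1ad -0.29, Eif1ax -0.58, Eif1b -0.53, Eif2s1 -0.095, Eif3c -0.036, Eif3d -0.11, Eif3i -0.32, Eif3k -0.11, Eif3l -0.16, Eif3m -0.10, Eif4a3 -0.51, Eif4a3l1 -0.55, Eif4e -0.30, Eif4ebp2 -0.47, Eif4enif1 -0.43 and Eif5 -0.66. With emodin against LPS_IFNg, normexp turned the sign of Eef2k 0.072 and Eif5b 0.14. With emodin against LPS_IFNg, the mean of a gene's probes turned the sign of Eif1 0.21 and Eif4g3 0.34. In LPS_IFNg_emodin against control, quantile scaling turned the sign of Eef1a1 -0.17, Eef1b2 -0.068, Eef1d -0.14, Eif1b -0.0029, Eif3k -0.36, Eif3l -0.10, Eif4ebp1 -0.24 and Eif5a -0.36. In LPS_IFNg_emodin against control, the deposited value table turned the sign of Eef1a1 -0.18, Eef1b2 -0.081, Eef1d -0.15, Eif1b -0.0082, Eif3k -0.37, Eif3l -0.12, Eif4ebp1 -0.25 and Eif5a -0.36. In LPS_IFNg_emodin against control, normexp turned the sign of Eif5a -0.31. The files hold a median but no mean spot signal, so normexp used the median, a choice made after seeing the data, as was leaving out replicate 3 of both treated groups. Probes near background limit Eef2k, Eif5b and Eef1a2 most.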
